A study of Mus musculus with 10 samples.

Results

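The 10 genes Pmel, Mlana, Tyr, Tyrp1, Dct, Oca2, Slc45a2, Slc24a5, Gpr143 and Rab38 make the melanosome and its pigment, and their transcripts were examined in mouse lung as a readout of B16F10 melanoma cells. They were taken by gene symbol from the platform annotation of the arrays, out of 19505 annotated genes. Each had 1 probe set, and all 10 passed the filter on low values that left 19011 genes to test. The lungs were those of male C57BL/6J mice, aged 6 weeks by the growth protocol, in 5 groups of 8 animals whose treatment lasted 20 days. Mice of 1 group received water and no B16F10 cells. The remaining 4 groups received B16F10 cells and then either water, dacarbazine (DTIC, which alkylates DNA and is given to patients with melanoma) at 70 mg/kg per day, or SQ-diEG, at 5 mg/kg per day in 1 group and 25 mg/kg per day in another. B16F10 is a single pigmented melanoma line that arose in C57BL/6 mice, so host and tumour share their strain background. The cell number and the route were not read from any source used here. Each group was represented by 2 arrays, 10 in all. Whether an array held RNA of 1 mouse or of several is not stated, so p-values reflect just the spread among these arrays, and that spread may be technical.

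Melanosomes are lysosome-related organelles in which pigment cells make and store melanin. Pmel forms the fibrils on which melanin is laid down, Tyr catalyses the first steps of melanin synthesis, and Tyrp1 and Dct act on later intermediates. Oca2, Slc45a2 and Slc24a5 are transport proteins that set the ion and acid balance of the organelle. Gpr143 is a receptor of the melanosome membrane, Rab38 is a small GTPase that carries enzymes to melanosomes and is also found in type II alveolar cells of the lung, and Mlana is a membrane protein that binds Pmel and is a common marker of melanoma. Several of these genes are known targets of the transcription factor Mitf, which binds the hexamer CATGTG within a longer element called the M-box. Healthy lung holds few pigment cells, and B16F10 cells that settle there form black nodules.

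The hexamer is shown here because all the members with a promoter window carried it, so its presence in all of them is no separate result. No member with a window lacked it, so their joint behaviour on the arrays cannot be compared with that of members without it. The RefSeq promoter table (GRCm38.p6, a window around each transcript start) held windows for 5 of the 10 genes, Tyr, Tyrp1, Dct, Oca2 and Slc24a5. CATGTG, searched on both strands (its reverse complement is CACATG), occurred in all 5 of these windows and in 14.2% of all 32851 windows of that length. The 7-base form TCATGTG, which contains the hexamer, occurred in 4 of the 5 (all but Oca2) and in 3.77% of all windows. The 9-base form AGTCATGTG, which contains both, occurred in the windows of Tyr and Tyrp1 and in 0.274% of all windows. A match in such a window is a description of its letters and was not measured as a bound site.

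The 30-base stretches around each match follow, 5′ to 3′ on the gene's strand, with the hexamer or its reverse complement in capitals. The match began 21 bases before the transcript start in Tyr (chr7:87493516-87493545, minus strand), 46 before a start of Tyrp1 that lies inside the annotated gene (chr4:80834155-80834184, plus strand) and 13 before that of Slc24a5 (chr2:125068102-125068131, plus strand). In Oca2 it began 186 bases before a start that also lies inside the annotated gene (chr7:56239561-56239590, plus strand; the annotated gene begins at 56239593). Dct held 2 matches on the minus strand, 150 bases (chr14:118052379-118052408) and 232 bases (chr14:118052461-118052490) before its start.
Tyr: gaaaaagttagtCATGTGctttgcagaaga
Tyrp1: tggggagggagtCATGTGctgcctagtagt
Dct, nearer match: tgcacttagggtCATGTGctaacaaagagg
Dct, farther match: gcttggctgggaCACATGagcccaataaag
Slc24a5: aaggagactgctCACATGattcagcataag
Oca2: ttgagcttgctaCACATGgctggaattttc

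The values are the authors' deposited log2 values, 1 per probe set and array. The array carried 5222 probe sets as negative controls, and their 95th percentile lay between 10.67 and 11.05 on the different arrays. None of the 100 values of the pigment genes (10 genes on 10 arrays) reached it. Of the 195050 values of all genes, 683 did so, between 0.287% and 0.42% of genes on an array. Against the 23 background probe sets, which spread less, 37 of the 100 values exceeded the array's 95th percentile (7.60 to 7.95), a share of 37.0% where 38.9% of the values of all genes did so. By array, 2 to 6 of the 10 pigment genes did so, with 6 on the second injected array given water, where 41.3% of all genes did. The labelled tissue was checked by its markers: no gene of the lists for type II alveolar (8 genes), type I alveolar (5), airway (5), endothelial (6), immune (7), fibroblast (5), red (1) or epidermal cells (5) exceeded the negative controls' 95th percentile on any array. Among 9 genes that nearly all cells use, 2 did, Gapdh on 4 arrays and Eef1a1 on 2. Over all 19505 genes 513 did so on any array, so few genes of any kind reached that limit. Correlations between arrays across genes were 0.17 to 0.233 within groups and 0.111 to 0.237 between groups. In bulk RNA fewer cells of a type and less RNA per cell cannot be told apart.

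Pmel stood at 5.90 and 7.11 in uninjected lungs and at 9.19 and 9.68 in injected lungs given water. It stood at 6.89 and 8.42 with DTIC, at 8.32 and 7.79 with SQ-diEG at 5 mg/kg and at 8.97 and 6.91 at 25 mg/kg. The injected arrays given water were the highest of the 10, while the DTIC and 25 mg/kg groups each held 1 array below the higher uninjected array. For how many of all genes the injected arrays given water were the highest was not counted. Mlana stood at 8.71 and 7.23 in uninjected lungs and at 9.05 and 9.21 in injected lungs given water. It stood at 7.75 and 7.79 with DTIC, at 9.31 and 8.13 with SQ-diEG at 5 mg/kg and at 6.78 and 7.85 at 25 mg/kg. For Mlana the highest array was 1 of the 5 mg/kg arrays, and the uninjected arrays spanned all values of the DTIC group.

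The 3 enzymes of melanin synthesis each followed their own order of groups. Tyr ran from 5.23 to 8.72, and both ends of that range came from the 25 mg/kg group. Its spread within groups (pooled SD 1.41) was the widest of the 10 genes, beside group means from 6.34 to 7.82. Tyrp1 stood at 7.23 and 7.04 in uninjected and at 8.55 and 7.52 in injected lungs given water. It stood at 7.09 and 5.83 with DTIC, at 9.88 and 7.53 with SQ-diEG at 5 mg/kg and at 6.65 and 5.95 at 25 mg/kg. The single array at 9.88 set the highest mean of Tyrp1 (8.70 ± 1.66, SD, n = 2), and the 25 mg/kg group had the lowest (6.30 ± 0.50, SD, n = 2). Dct varied least among the 10 genes, between 5.91 and 7.73, with its lowest mean at 25 mg/kg (6.36 ± 0.65, SD, n = 2) and its highest at 5 mg/kg (7.49 ± 0.21, SD, n = 2). The other means of Dct were 7.31 in injected lungs given water, 7.33 with DTIC and 6.48 in uninjected lungs, beside an SD within groups of 0.48. In the limma fit the difference between 7.31 and 6.48 was 0.83 (SE 0.94), and its 95% interval of -1.05 to 2.70 held 0.

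Among the transport proteins, Oca2 ran from 6.10 to 9.29, both in the 5 mg/kg group, and its highest group mean was that of the uninjected lungs (8.51 ± 0.67, SD, n = 2). Slc45a2 stood at 6.30 and 7.51 in uninjected lungs and at 6.19 and 6.05 in injected lungs given water. It stood at 7.90 and 7.26 with DTIC, at 6.59 and 8.47 with SQ-diEG at 5 mg/kg and at 8.66 and 7.98 at 25 mg/kg. Its lowest values were therefore those of the injected lungs given water, the group in which Pmel was highest. The share of all genes with their lowest values in this group was not counted. Slc24a5 stood at 6.45 and 7.51 in uninjected lungs and at 7.30 and 8.38 in injected lungs given water. It stood at 5.33 and 8.01 with DTIC, at 5.98 and 5.45 with SQ-diEG at 5 mg/kg and at 7.60 and 7.76 at 25 mg/kg. Both 5 mg/kg arrays lay below both arrays of every other group except DTIC, whose arrays stood at 5.33 and 8.01.

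The receptor Gpr143 was highest in the uninjected lungs, at 8.91 and 8.30. It stood at 7.22 and 7.17 in injected lungs given water, at 6.91 and 7.71 with DTIC, at 7.09 and 6.25 with SQ-diEG at 5 mg/kg and at 6.93 and 6.59 at 25 mg/kg. All 8 injected arrays lay below both uninjected arrays, which held for 2.25% of all genes tested. Rab38 stood at 10.11 and 10.09 with SQ-diEG at 25 mg/kg and between 6.70 and 7.98 on the other 8 arrays, among them 7.09 and 7.09 at 5 mg/kg. The 25 mg/kg arrays were the highest of the 10, and their values lay under the negative controls' 95th percentile of those arrays (10.98 and 11.05). For how many of all genes the 25 mg/kg arrays were the highest was not counted.

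**Figure D1:**
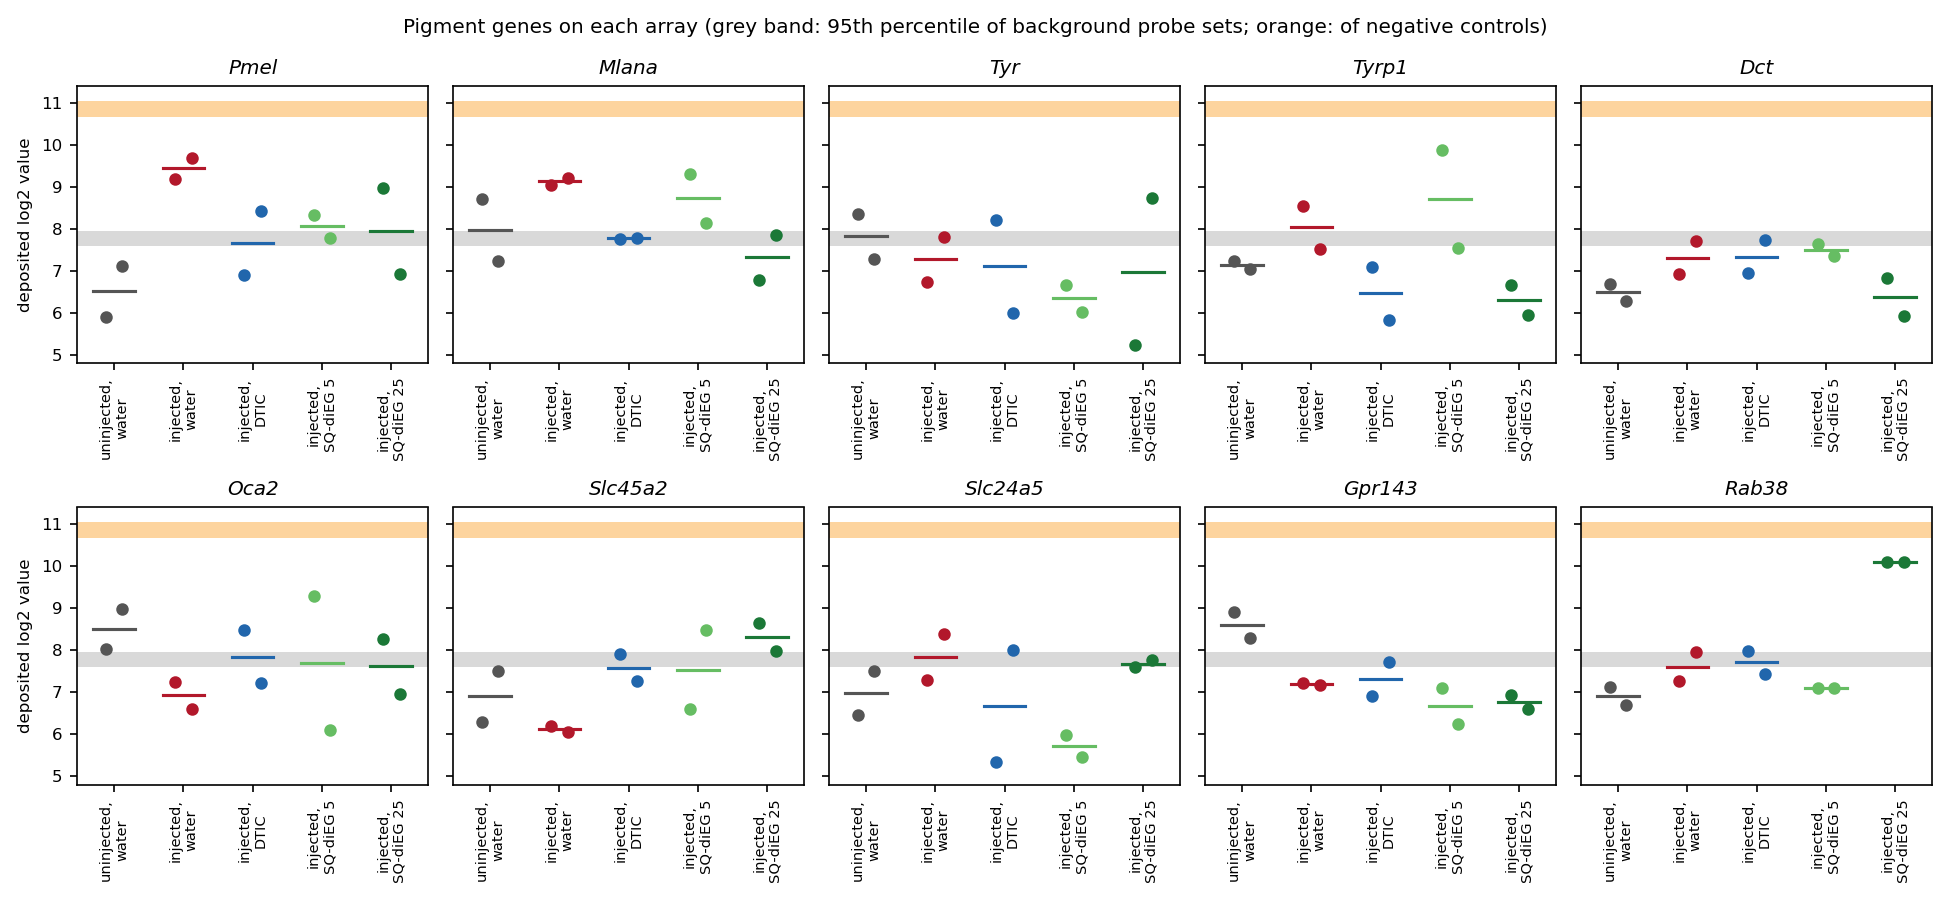
Deposited log2 values (vertical axis) of the 10 pigment genes in the 5 groups (horizontal axis), 1 point per array and a line at the mean of 2 arrays; the grey band is the range over arrays of the 95th percentile of the background probe sets (7.60 to 7.95) and the orange band that of the negative controls (10.67 to 11.05). Every point lies below the orange band, Pmel is highest in injected lungs given water, Gpr143 in uninjected lungs and Rab38 at 25 mg/kg SQ-diEG. No gene passed a test for any difference among the 5 groups after adjustment.

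A test for any difference among the 5 groups was made with limma's F test over all 19011 genes. After Benjamini-Hochberg adjustment no pigment gene had a p under 0.05, and no gene at all did (0% of genes). Before adjustment 1 of the 10 pigment genes had a p under 0.05, as had 5.12% of all genes. That gene was Rab38 (F = 3.82, adjusted p = 0.917), followed by Pmel (F = 2.35, adjusted p = 0.949) and Tyrp1 (F = 2.27, adjusted p = 0.949). The SD within groups had a median of 0.85 over the pigment genes and of 0.92 over all genes tested. Limma drew the spread of each gene toward that of all genes tested (51 prior and 5 residual degrees of freedom). The SEs and p-values below therefore rest mostly on the spread of all genes. For 2 groups the SE was 0.93 for Rab38 (SD within groups 0.31) and 1.02 for Tyr (1.41).

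The first comparison asked whether injection of B16F10 raised the pigment genes in lungs of mice given water. Pmel was the gene furthest on the injected side, by 2.93 on the log2 scale (SE 0.97), and the melanoma marker Mlana followed with 1.16 (SE 0.95). The enzymes Tyrp1 and Dct differed by 0.90 (SE 0.97) and 0.83 (SE 0.94), the transporter Slc24a5 by 0.86 (SE 0.97) and Rab38 by 0.70 (SE 0.93). On the other side stood Oca2 at -1.59 (SE 0.99), Gpr143 at -1.41 (SE 0.93), Slc45a2 at -0.78 (SE 0.95) and tyrosinase itself, Tyr, at -0.55 (SE 1.02). The injected arrays did not overlap with the uninjected ones for 8 of the 10 genes, where this held for 34.3% of all genes, and these 8 divided into 5 higher (18.3% of all genes) and 3 lower (16% of all genes). Of the 10 genes 6 were higher, as were 52.2% of all genes.

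None of the 10 genes passed limma's test over all genes, nor did any other gene (0% of 19011). Pmel alone had a limma p under 0.05 before adjustment, as 5.74% of all genes had, and its p ranked 96 among the 19011 genes (limma adjusted p = 0.722). Its 95% interval was 1.00 to 4.86, while that of Tyr, -2.59 to 1.48, held 0. The median difference of the 10 genes was 0.76 and that of all genes tested 0.05. Without the second injected array given water the median of the 10 genes was 0.34. With the hybridization controls described further on as a covariate, the difference of Oca2 was 2.16 and that of Slc24a5 was -1.32, opposite in sign to the values above. In that fit Tyrp1 had the largest difference of the 10 genes, 4.16 (SE 1.81), Pmel stood at 2.72 (SE 1.87) and Slc45a2 at -1.44 (SE 1.84), each with a limma adjusted p = 0.999. Both uninjected arrays had lower controls than every injected array, so controls and injection cannot be told apart in this fit. Leaving out the first or the second uninjected array put Mlana at 1.90 or 0.42 and Slc45a2 at -1.39 or -0.18, and Pmel at 2.32 or 3.54.

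Lists of other cells differed between the same 4 arrays by amounts on either side of the pigment genes' median, and no difference between lists was tested. The median difference was 0.99 over 9 genes that nearly all cells use and 0.96 over 6 endothelial genes, and the 1 red cell gene differed by 1.89. The median was 0.55 over 5 airway genes, 0.24 over 5 genes of type I and 0.04 over 8 genes of type II alveolar cells. It was 0.11 over 5 fibroblast genes, -0.14 over 7 immune genes and -0.33 over 5 genes of skin epidermis. Genes of nearly all cells, endothelial genes and fibroblast genes each included 1 with a limma p under 0.05 before adjustment. Over all genes 5.74% had such a p, and none passed the threshold. The summed log2 values of the 10 pigment genes were 73.7 and 74.0 in uninjected and 75.7 and 78.1 in injected lungs given water, and those of the 9 genes of nearly all cells 70.1 and 75.0 against 79.6 and 77.9. Their part in the values of the pigment genes was not tested.

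All 4 injected groups together, 8 arrays, were then set against the same 2 uninjected arrays, so part of the data is used again. For Pmel the injected mean was 8.27 ± 1.02 (SD, n = 8) and the uninjected mean 6.51 ± 0.86 (SD, n = 2), which gave a log2 difference of 1.77 (SE 0.76). Gpr143 averaged 6.98 ± 0.44 (SD, n = 8) and 8.60 ± 0.43 (SD, n = 2), a log2 difference of -1.62 (SE 0.74). These were the 2 pigment genes with a limma p under 0.05 before adjustment, as 5.42% of all genes had, and they lay on opposite sides. Neither passed over all genes (limma adjusted p = 0.87 and 0.904), and 0% of genes did. Gpr143 was also the 1 pigment gene whose injected and uninjected arrays did not overlap, which held for 4.8% of all genes (2.55% higher and 2.25% lower). With the hybridization controls as a covariate the differences were 1.60 (SE 1.44) for Pmel and -1.41 (SE 1.40) for Gpr143, and the largest of the 10 was that of Tyrp1, 2.73 (SE 1.39). Here too the controls and injection cannot be told apart. Pmel stood at 1.16 without the first uninjected array.

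The other pigment genes differed less between the 8 injected and the 2 uninjected arrays. Rab38 differed by 1.22 (SE 0.74), a mean raised by the 25 mg/kg arrays, Oca2 by -1.0 (SE 0.79) and Tyr by -0.90 (SE 0.80). Dct differed by 0.64 (SE 0.74), Slc45a2 by 0.48 (SE 0.75), Mlana by 0.26 (SE 0.75), Tyrp1 by 0.24 (SE 0.76) and Slc24a5 by 0.00 (SE 0.77), which was -0.04 after quantile normalization and -1.67 with the hybridization controls as a covariate. By unrounded sign 6 genes were higher and 4 lower, and 53.1% of all genes were higher. The median was 0.25 against 0.06 over all genes. The median of the 10 genes was 0.03 without the first 5 mg/kg array.

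**Figure D2:**
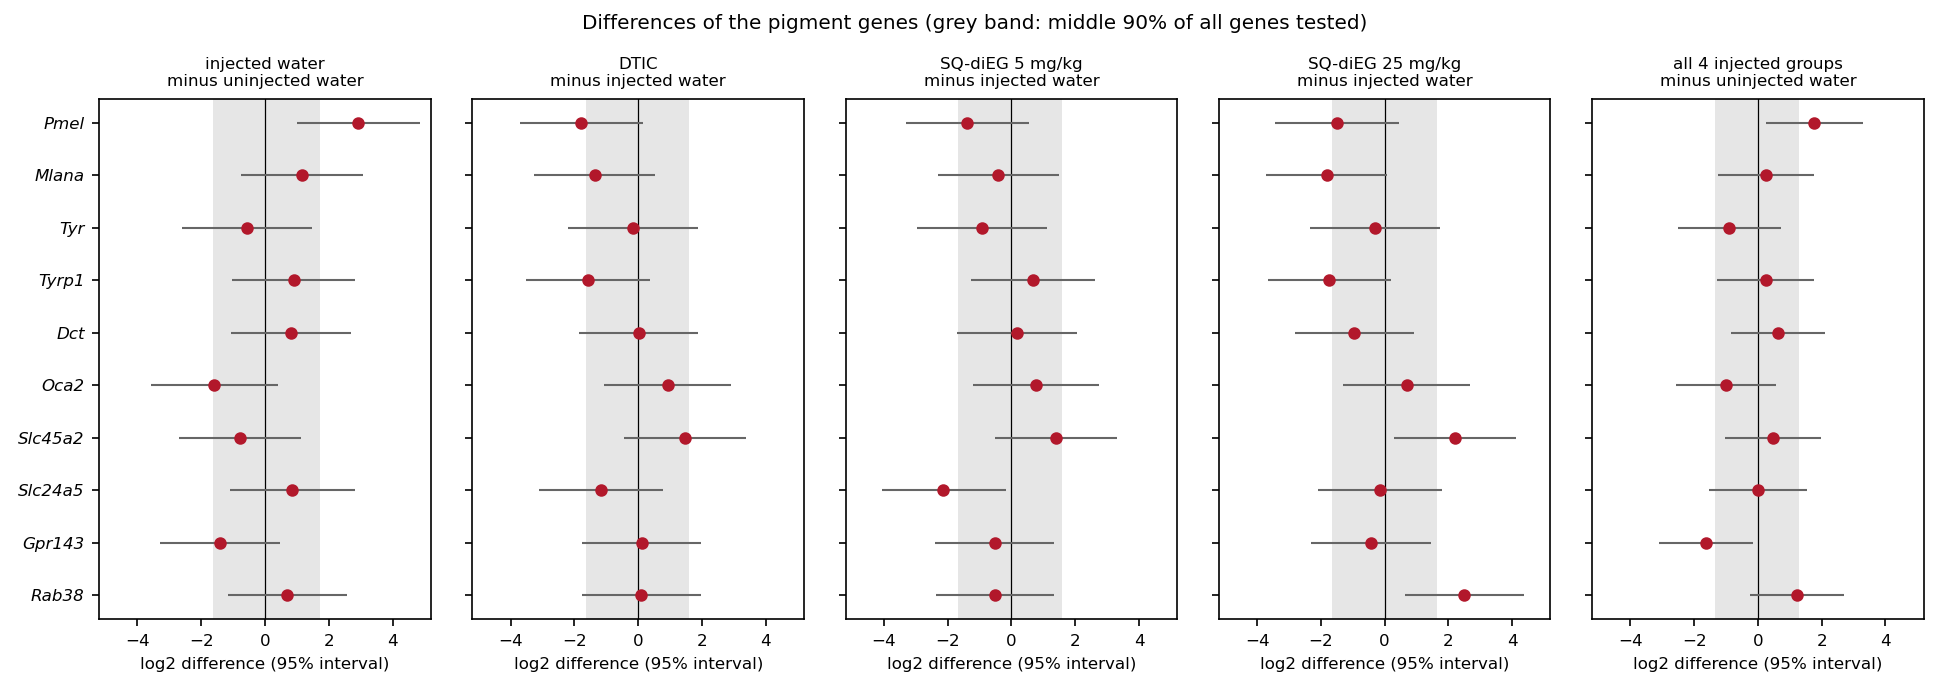
Log2 differences (horizontal axis, points) of the 10 pigment genes with their 95% intervals from limma (lines) in the 5 comparisons, 1 panel each; the grey band spans the 5th to the 95th percentile of the differences of all 19011 genes, -1.63 to 1.73 in the first panel. Outside the band lie Pmel in the first panel, Pmel with DTIC, Slc24a5 at 5 mg/kg, Rab38, Slc45a2, Mlana and Tyrp1 at 25 mg/kg, and Pmel and Gpr143 for all injected groups.

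DTIC was compared with water in injected mice, and here and below the reference is the same pair of injected arrays in which Pmel was highest. The mean of Pmel was 7.65 ± 1.08 (SD, n = 2) under DTIC, against 9.44 ± 0.35 (SD, n = 2) under water, so the log2 difference was -1.78 (SE 0.97). Tyrp1 and Mlana stood on the same side, at -1.58 (SE 0.97) and -1.36 (SE 0.95), and Slc24a5 at -1.17 (SE 0.97). Slc45a2 stood on the other side at 1.46 (SE 0.95), with Oca2 at 0.92 (SE 0.99). Tyr, Dct, Gpr143 and Rab38 lay within 0.17 of no difference, with intervals that reached from -1.86 to 1.89 for Dct and from -2.20 to 1.87 for Tyr.

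Of the 10 genes, 5 were higher and 5 lower with DTIC, and 49.5% of all genes were higher. Arrays did not overlap for 4 of them (32.4% of all genes), 1 higher (16.2% of all genes) and 3 lower (16.2%). None had a limma p under 0.05 before adjustment, as 4.87% of all genes had, and none passed (0% of all genes). Pmel came nearest, at rank 1323 by p (limma adjusted p = 0.995). The median difference was -0.07, against -0.01 over all genes, and moved between -0.54 and 0.23 when 1 of the injected arrays given water was left out. With the hybridization controls as a covariate Tyrp1 stood at -2.98 (SE 1.15, limma adjusted p = 0.833), Slc24a5 at -0.24, Oca2 at -0.69 and Gpr143 at -0.01. Pmel stood at -1.02 without the first DTIC array, and Tyrp1 at -0.94 without the second.

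SQ-diEG at 5 mg/kg per day was compared with water in the same way. The mean of Slc24a5 was 5.71 ± 0.38 (SD, n = 2) at this dose, against 7.84 ± 0.76 (SD, n = 2) under water, so the log2 difference was -2.13 (SE 0.97). Pmel stood at -1.38 (SE 0.97) with arrays that did not overlap, and Tyr at -0.93 (SE 1.02). Slc45a2 stood at 1.41 (SE 0.95), Oca2 at 0.77 (SE 0.99) and Tyrp1 at 0.67 (SE 0.97). The pairs of arrays behind Oca2 (9.29 and 6.10) and Tyrp1 (9.88 and 7.53) lay far apart, and without the first of them the differences were -0.82 and -0.50.

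Of the 10 genes, 4 were higher than with water (48.1% of all genes) and 6 lower. Arrays did not overlap for 6 of the 10 (33.5% of all genes), 1 higher (15.5%) and 5 lower (18%). Slc24a5 was the 1 pigment gene with a limma p under 0.05 before adjustment (limma adjusted p = 0.922), as 5.29% of all genes had, and no gene passed (0%). The remaining differences were -0.53 (SE 0.93) for Gpr143, -0.52 (SE 0.93) for Rab38, -0.41 (SE 0.95) for Mlana and 0.18 (SE 0.94) for Dct. The median was -0.46 against -0.05 over all genes, and 0.04 without the second 5 mg/kg array. With the hybridization controls as a covariate Slc24a5 stood at -1.06 (SE 1.23, limma adjusted p = 0.964), Tyrp1 at -0.92, Oca2 at -1.06 and Mlana at -0.63. Slc45a2 stood at 2.35 without the first 5 mg/kg array and at 0.47 without the second.

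At 25 mg/kg per day SQ-diEG went with the largest differences of any treatment against water among the pigment genes, and they lay on both sides. The mean of Rab38 was 10.10 ± 0.01 (SD, n = 2) at this dose, against 7.61 ± 0.48 (SD, n = 2) under water, so the log2 difference was 2.50 (SE 0.93). For Slc45a2 the means were 8.32 ± 0.48 and 6.12 ± 0.10 (SD, n = 2 each) and the log2 difference 2.20 (SE 0.95). Mlana stood at -1.81 (SE 0.95), Tyrp1 at -1.73 (SE 0.97), Pmel at -1.50 (SE 0.97) and Dct at -0.95 (SE 0.94), and in each of these 4 genes both treated arrays lay below both arrays of injected lungs given water.

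Arrays did not overlap for 7 of the 10 genes at 25 mg/kg, 2 of them higher and 5 lower, where this held for 33.4% of all genes (16.6% higher and 16.8% lower). In all 3 of the 10 were higher, as were 49.1% of all genes. Rab38 and Slc45a2 had a limma p under 0.05 before adjustment, as 5.24% of all genes had. Neither passed (limma adjusted p = 0.941 for both), and 0% of all genes did. Oca2 differed by 0.69 (SE 0.99), Gpr143 by -0.43 (SE 0.93), Tyr by -0.29 (SE 1.02) and Slc24a5 by -0.16 (SE 0.97). The median of the 10 was -0.36 and that of all genes -0.02. With the hybridization controls as a covariate Rab38 stood at 2.49 (SE 0.94) and Slc45a2 at 2.22 (SE 0.96), both with a limma adjusted p = 0.919. In that fit Mlana stood at -1.82, Tyrp1 at -1.80, Pmel at -1.49 and Dct at -0.94. The 3 treatments share the injected arrays given water, so their values are given side by side and not as independent results: for Pmel -1.78 with DTIC, -1.38 at 5 mg/kg and -1.50 at 25 mg/kg, and for Slc45a2 1.46, 1.41 and 2.20. At 25 mg/kg Pmel stood at -2.53 without the first treated array and at -0.47 without the second, and Dct stood at -1.41 and -0.49.

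Whether the 10 genes were high and low on the same arrays was measured for each pair over the 10 arrays. The 45 Pearson correlations ran from -0.83 to 0.69 with a median of -0.11, and 18 were above 0 and 27 below. Over all 180699555 pairs of genes tested the median was 0.00 and 49.8% were above 0, and the middle 90% lay between -0.55 and 0.56. The share above 0 was thus 40.0% among the pigment genes. These correlations share arrays and groups, and each rests on 10 points. Over the 8 injected arrays the median was -0.03, over the 5 group means -0.27, and after subtracting group means 0.00.

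The closest pair was Mlana with Tyrp1, with r = 0.69 (permutation p = 0.0217) and rho = 0.76 (permutation p = 0.0151), two-sided over n = 10 arrays, and r = 0.58 without the 2 arrays farthest from the median of Mlana. The most opposed pair was Mlana with Slc45a2, with r = -0.83 (permutation p = 0.00485) and rho = -0.72 (permutation p = 0.0237), and r = -0.77 without 2 arrays. Adjusted over the 45 pairs (Benjamini-Hochberg) the permutation p was 0.488 and 0.218 for r and 0.534 for both by rho, so neither pair passed, nor did any other. Pmel and Mlana, whose proteins bind each other, had r = 0.23 (permutation p = 0.506, adjusted 0.811) and rho = 0.26 (permutation p = 0.466, adjusted 0.848), and r = 0.27 without 2 arrays.

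The pairs among the 3 enzymes lay within the middle 90% of all pairs of genes. Tyr with Tyrp1 had r = -0.11 (permutation p = 0.764) and rho = -0.02 (permutation p = 0.972), Tyr with Dct r = -0.46 (permutation p = 0.182) and rho = -0.49 (permutation p = 0.154), and Tyrp1 with Dct r = 0.38 (permutation p = 0.279) and rho = 0.26 (permutation p = 0.471). Their adjusted values were 0.907, 0.685 and 0.698 for r and 0.995, 0.772 and 0.848 for rho. Without the 2 farthest arrays r was -0.06, -0.45 and 0.24. Among the 5 genes with CATGTG in the promoter windows shown above, 3 of 10 pairs were above 0, with a median r of -0.10 and a range from -0.46 to 0.38. No member with a window lacked the hexamer, so these correlations cannot be related to it.

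**Figure D3:**
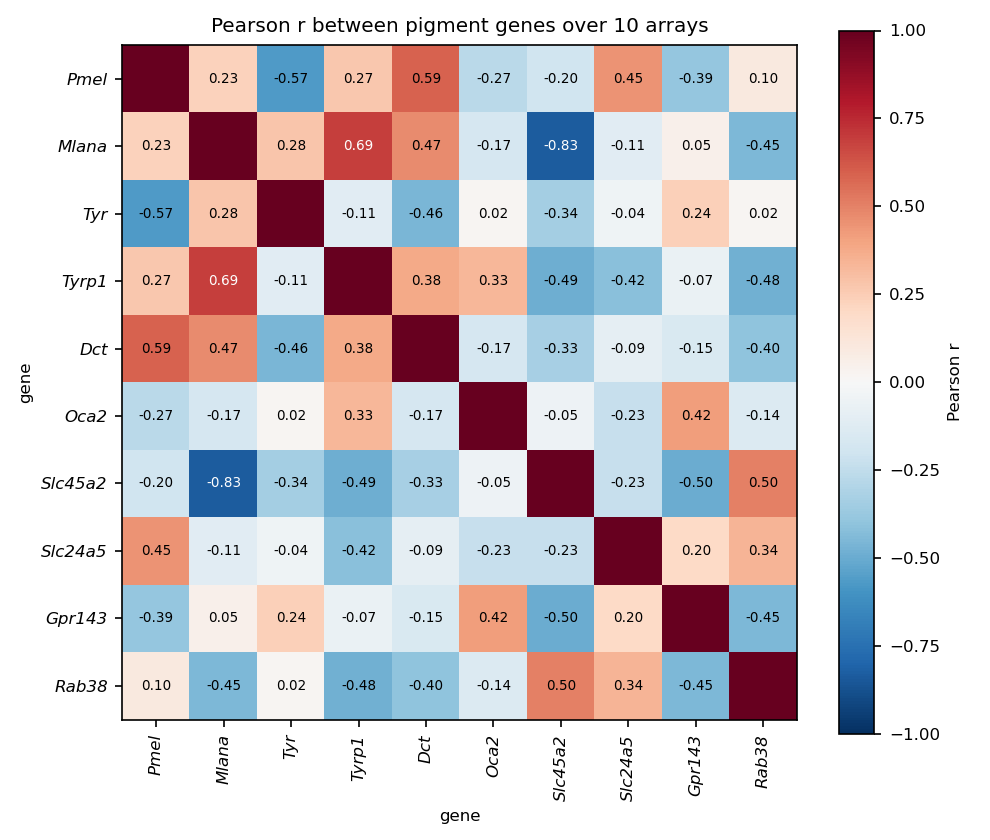
Pearson r between each pair of the 10 pigment genes (both axes) over the 10 arrays, with red above 0 and blue below. Of the 45 pairs 18 are above 0, the highest is Mlana with Tyrp1 (0.69) and the lowest Mlana with Slc45a2 (-0.83).

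Taking Pmel as the reference, the other 19010 genes tested were ordered by their correlation with it over the 10 arrays. The highest were the vomeronasal receptor gene Vmn1r28 and the potassium channel gene Kcnk6 (r = 0.90 for both), then Traf3ip3, the olfactory receptor gene Olfr1359 and Dcun1d5 (r = 0.89 for each). None of these 5 is a pigment gene. Dct came at rank 756 (r = 0.59), Slc24a5 at 1859 (r = 0.45), Tyrp1 at 4521, Mlana at 5154 and Rab38 at 7611. Slc45a2, Oca2, Gpr143 and Tyr were in the lower part of the order, at 13564, 14772, 16469 and 18146, the last with r = -0.57.

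The hybridization controls, bacterial and phage transcripts that are added to the hybridization mix, differed between the groups compared. Uninjected lungs had means of 8.47 and 8.68, and injected lungs given water 10.28 and 10.99. The means were 9.22 and 10.28 with DTIC, 9.10 and 10.15 at 5 mg/kg and 10.27 and 10.92 at 25 mg/kg, so the uninjected arrays were the lowest 2 of the 10. The fits with this mean as a covariate are given beside each comparison above. In the comparisons with uninjected lungs these fits cannot tell the controls and injection apart.

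Pmel had r = 0.63 (permutation p = 0.0536) and rho = 0.65 (permutation p = 0.0492) with the mean of the controls over n = 10 arrays, and r = 0.32 without the 2 arrays farthest from its median, which were the uninjected ones. Gpr143 had r = -0.65 (permutation p = 0.0391) and rho = -0.35 (permutation p = 0.33), and r = -0.03 without them, so that relation rested on those 2 arrays. Oca2 had r = -0.74 (permutation p = 0.0187) and rho = -0.66 (permutation p = 0.0448), and r = -0.77 without them. Slc24a5 had r = 0.53 (permutation p = 0.119) and rho = 0.65 (permutation p = 0.0491), and r = 0.79 without them. Adjusted over the 10 genes (Benjamini-Hochberg), the permutation p for r was 0.179 for Pmel, Gpr143 and Oca2 and 0.238 for Slc24a5, and for rho 0.164, 0.66, 0.164 and 0.164. Over all genes tested the median r with the controls was 0.02, and the middle 90% lay between -0.57 and 0.59.

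**Figure D4:**
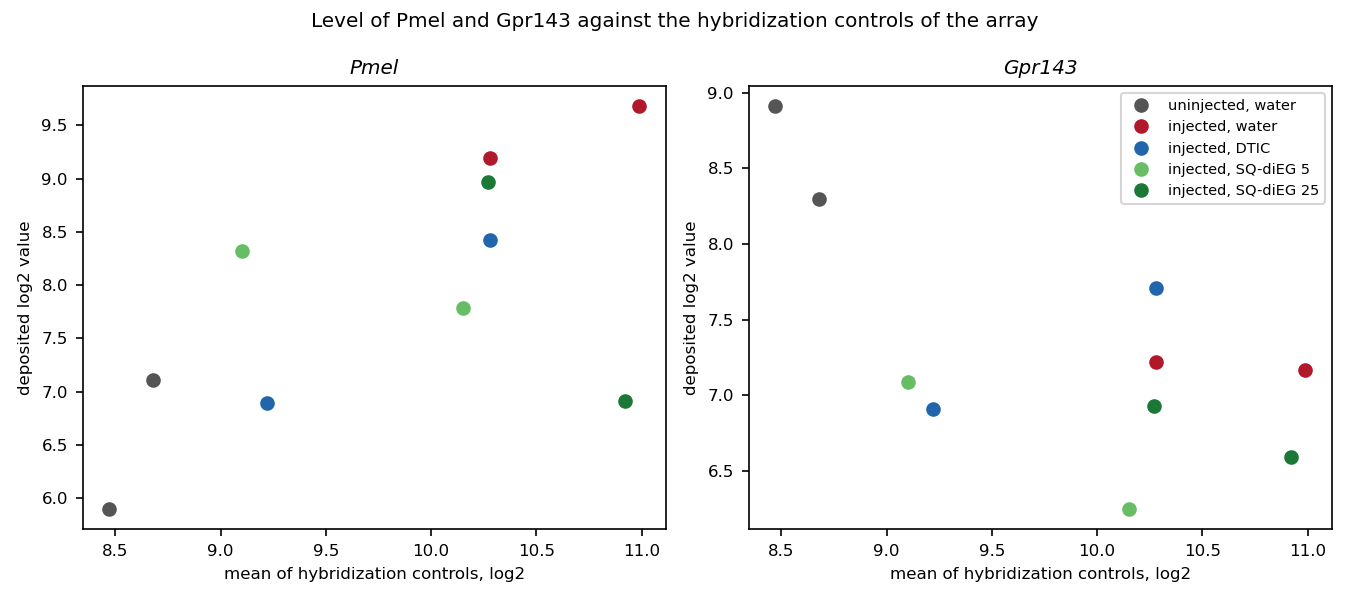
Deposited log2 value (vertical axis) of Pmel (left) and Gpr143 (right) against the mean of the 4 hybridization control probe sets of the array (horizontal axis, log2), 1 point per array, coloured by group. The uninjected arrays have the lowest controls (8.47 and 8.68), the highest Gpr143 (8.91 and 8.30), and Pmel at 5.90 and 7.11.

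Other genes of pigment cells were read from 3 companion lists. The first held 10 genes listed as regulators and receptors of melanocytes, and not all are particular to these cells. Of the 10, 5 were higher and 5 lower in injected than in uninjected lungs given water, with a median difference of -0.01. None passed, and 1 had a limma p under 0.05 before adjustment. Over all genes tested 52.2% were higher in that comparison and 5.74% had such a p. Those with the smallest p were Irf4, a transcription factor of pigment and immune cells, at 6.52 ± 0.50 against 9.17 ± 1.30 (SD, n = 2 each), a log2 difference of -2.65 (SE 0.95, limma adjusted p = 0.74), and the melanocortin receptor gene Mc5r at 1.49 (SE 0.98, limma adjusted p = 0.911). Over all 4 injected groups Irf4 stood at -2.07 (SE 0.75) and Mitf, the main regulator of pigment cells, at -1.14 (SE 0.76). The adjusted p in limma was 0.777 and 0.921.

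Of 24 genes that build, fill or move melanosomes, 10 were higher and 14 lower in injected lungs given water, with a median of -0.33 and 2 genes with a limma p under 0.05 before adjustment. Over all genes tested the median was 0.05, 52.2% were higher and 5.74% had such a p. Hps6, a subunit of a complex that sorts cargo to lysosome-related organelles, averaged 6.40 ± 0.29 against 8.86 ± 0.35 (SD, n = 2 each), a log2 difference of -2.45 (SE 0.93, limma adjusted p = 0.74). Rab27a, which tethers melanosomes to their motor, stood at 2.20 (SE 0.94, limma adjusted p = 0.812). Over all 4 injected groups Mreg stood at 1.95 (SE 0.86) and Hps6 at -1.30 (SE 0.74), with limma adjusted p = 0.886 and 0.911. Of 11 further genes often high in melanoma lines 6 were higher and 5 lower in injected lungs given water (52.2% of all genes higher). Their median was 0.35 (0.05 over all genes), and 0 had a limma p under 0.05 before adjustment (5.74% of all genes). They were led by Apoe at 1.38 (SE 0.96, limma adjusted p = 0.922) and Syt4 at 1.19 (SE 1.02, limma adjusted p = 0.946). Over all 4 injected groups 9 of these 11 were higher, where 53.1% of all genes were, with a median of 0.12 against 0.06 over all genes. The list was led by the melanosome and exosome protein gene Cd63 at 1.71 (SE 0.77) and Mcam at 1.34 (SE 0.74), with limma adjusted p = 0.904 and 0.91. No gene of the 3 lists passed in either comparison.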

How the data were processed

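The authors deposited log2 values, 1 for each array and probe set, made with RMA in Expression Console (Affymetrix), per the submitters' processing notes, which also name Transcriptome Analysis Console. Versions, the form of RMA and the build were not found in any source used here. The labels describe a 3' kit, whereas the probe set names have the form of whole-transcript arrays, and the treatment text gives the mice's age in years, read as weeks. Of 28846 probe sets, 6640 were controls by name, 19572 had 1 gene symbol, 0 had several and 2634 had none. All members matched the NCBI gene table (GRCm38.p6, used for names and promoter sequences).

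Where a gene had several probe sets, that of highest mean stood for it. Genes were tested if, on 2 or more arrays, they reached the 40th percentile of all probe sets that are not controls. One group-means model over all 10 arrays was fitted with limma 3.58.1 in R 4.3.3 (5 residual and 51 prior degrees of freedom), with Benjamini-Hochberg adjustment over all 19011 genes and a threshold of 0.05. The code was tested on simulated data. Permutation tests used 100000 resamples. The named genes were all 10 members, the 2 genes of each companion list with the smallest p in both tests of injection, the 5 genes most like Pmel, fixed pairs and the pairs with the highest and lowest r. Marker genes were set as checks of the tissue: Sftpc, Scgb1a1, Pecam1, Ptprc and Actb were above the 95th percentile of negative controls on 0 arrays each. Their means stood at percentiles 60.2, 74.4, 53.4, 20.2 and 99.3 of the means of all genes. Over all 19505 genes 513 were above it on any array. The members and lists were chosen with earlier results of these data known. Alternatives were other normalizations, filters, probe set summaries, variance models, a replicate block, a covariate and leaving out each array. Same-numbered arrays did not deviate together (correlations from -0.0216 to 0.0498), so the numbers were not treated as pairs. The number of arrays limits the precision.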

Additional observations from a re-analysis of the deposited data

How the results depend on the processing

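No gene passed in any comparison under any alternative run, so the count stayed 0, also with the replicate block. Of the 50 differences of the pigment genes, 31 kept their sign under all alternatives, and the smallest adjusted p over all of them was 0.627 (Pmel after injection, quantile normalization). Quantile normalization, median centring, other filters and probe set summaries, other variance models and fits on the compared groups alone turned no sign. Slc24a5 for all injected, at 0.00 and below 0 before rounding, was -0.04 after quantile normalization and -0.02 after median centring. The 60th percentile filter kept 9 members and removed Dct.

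With the hybridization controls as a covariate, Oca2 stood at 2.16 (injected against uninjected), -0.69 (DTIC), -1.06 (5 mg/kg) and 1.88 (all injected). Slc24a5 stood at -1.32 (injected) and -1.67 (all injected), Gpr143 at -0.01 (DTIC), Tyrp1 at 4.16 (injected), -2.98 (DTIC), -0.92 (5 mg/kg) and 2.73 (all injected), and Slc45a2 at -0.02 (all injected). The median of the 10 genes became -0.79 at 5 mg/kg and 0.52 for all injected. The cause was not tested. Where injected lungs were set against uninjected ones, the controls and injection cannot be told apart.

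Leaving out 1 array gave medians from 0.34 to 0.76 for injection, -0.54 to 0.23 for DTIC, -0.89 to 0.04 at 5 mg/kg, -0.77 to -0.11 at 25 mg/kg and 0.03 to 0.33 for all injected. Of the 50 differences of single genes, 36 moved by over 1.5 times or turned sign when 1 array was left out, and 15 turned sign. With DTIC, Tyr ran from -1.27 to 0.94, Dct from -0.38 to 0.41, Slc24a5 from -2.51 to 0.17, Gpr143 from -0.29 to 0.51 and Rab38 from -0.24 to 0.44. At 5 mg/kg Mlana ran from -1.0 to 0.18, Tyrp1 from -0.50 to 1.84, Dct from -0.21 to 0.57 and Oca2 from -0.82 to 2.37. At 25 mg/kg Tyr ran from -2.04 to 1.45 and Slc24a5 from -0.69 to 0.38. For all injected Mlana ran from -0.48 to 1.00, Tyrp1 from -0.06 to 0.53, Slc45a2 from -0.12 to 1.09 and Slc24a5 from -0.53 to 0.53.

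The median r of the 45 pairs (-0.109) was 0.001 after subtracting group means and -0.093 with the replicate block. Against the negative controls' median 42 of the 100 values lay above, a limit for which the share of all genes was not counted. Above the background probe sets' 95th percentile lay 37, a share of 37.0% where 38.9% of the values of all genes did so. Signal over background limits every value here.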
